A study of Homo sapiens with 12 samples.

Results

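MERTK, CD163 and DAB2 are 3 genes with roles in uptake by macrophages. RNA-seq measured them in THP-1, a monocytic leukaemia cell line of human origin whose cells become macrophage-like under the phorbol ester PMA. They were chosen by name among 3281 genes that the authors listed as changed by lipopolysaccharide (LPS), which bacteria carry in their outer membrane and TLR4 senses, in at least 1 genotype. Their LPS response was the reason for the choice, so it is described without a test. All 3 genes stood in the wild-type table, and 2 of them, MERTK and DAB2, also stood in the S80A table.

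The 12 libraries form 4 groups of 3, namely S80A cells at 3 hr, S80A cells at 0 hr, wild-type (WT) cells at 3 hr and WT cells at 0 hr. S80A cells have alanine in place of serine 80 in p50, the NF-κB subunit made from NFKB1, and the study asked how phosphorylation of that serine bears on transcription under LPS. All 4 groups received PMA at 25 ng/ml for 72 hr and rested for 4 days, and the 3 hr groups were given LPS at 10 ng/ml. The making of the edited line, whether it is 1 clone, and whether replicates were separate cultures are not stated in the labels, and counts per gene cannot show the substitution itself. Genotype and cell line therefore cannot be told apart, and the p-values rest on a spread between samples that may be technical alone. Expression is given as scaled reads, a gene's read count over the size factor of its library.

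Macrophages clear dying cells by efferocytosis, in which receptors bind phosphatidylserine on the dying cell directly or through bridging proteins. MERTK is a receptor tyrosine kinase that does so through the ligands GAS6 and PROS1, and its signalling is known to restrain inflammatory gene expression. CD163 is a scavenger receptor that takes up haemoglobin bound to haptoglobin, and DAB2 is an adaptor that links receptors of the LDL receptor family and integrins to clathrin coats. MERTK and CD163 are both shed from the cell surface by the protease ADAM17, a step that RNA levels do not show.

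The genes lie on 3 chromosomes. In GENCODE release 29 on GRCh38, MERTK spans 111898479 to 112029561 on the plus strand of chromosome 2, CD163 spans 7470813 to 7503893 on the minus strand of chromosome 12, and DAB2 spans 39371675 to 39462300 on the minus strand of chromosome 5. The annotated spans of CD163 and DAB2 overlap those of CD163L1 and C9 on the same strand, and neither is in the tables, so values are uncertain where counting could divide or drop shared reads. The 250 bases before the RefSeq start of each gene were searched for motifs because MERTK and DAB2 had the same order of groups and CD163 had another. GENCODE annotates transcripts that start further upstream, so that 128 bases of the MERTK window, 116 of the CD163 window and all 250 of the DAB2 window lie in untranslated exon there. Shown are the bases of the MERTK and CD163 windows before those exons, and 30 bases around the match in the DAB2 window. Sequences are from RefSeq on GRCh38.p14, written in the direction of the gene, with matches to the motifs described after them in capitals.
MERTK, chr2:111898357-111898478, plus strand: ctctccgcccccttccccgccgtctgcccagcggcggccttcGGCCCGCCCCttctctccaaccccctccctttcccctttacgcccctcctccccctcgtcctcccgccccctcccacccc
CD163, chr12:7503894-7504027, minus strand: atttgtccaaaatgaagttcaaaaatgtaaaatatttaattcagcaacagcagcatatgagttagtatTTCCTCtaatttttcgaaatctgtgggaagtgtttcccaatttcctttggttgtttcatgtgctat
DAB2, chr5:39425010-39425039, minus strand: cacgttgaggGGGAGTTACCaagcccaggc

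The motifs searched on both strands were a relaxed NF-κB motif (GGG, any 5 bases, then CC), a PU.1 core (GAGGAA), an AP-1 motif (TGACTCA) and a TATA box (TATAAA). The MERTK window held 6 matches to the NF-κB motif, a pair of which overlap each other and 1 of which lies in the bases shown, and the DAB2 window held 1, from 49 to 40 bases before the start. The CD163 window held none and had 1 match to the PU.1 core on the opposite strand. Of 35116 RefSeq windows of the same length, 54.4% held the NF-κB motif and 23.6% the PU.1 core. The AP-1 and TATA letters were in none of the 3 windows, and were in 4.20% and 10.7% of all windows. GC content was 78.8% for MERTK, 62.4% for DAB2 and 33.6% for CD163, beside a median of 58.0%.

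Reads on the 3281 listed genes ranged from 1924562 to 5789918 per library. Genes outside the tables are missing from these totals, which are therefore no measure of depth, and the labels name 20 M reads as the aim. Across listed genes the first principal component separated the times (71.1% of the variance) and the second the genotypes (17.6%). These genes were listed for an LPS change in the same libraries, so the separation of the times follows from the choice of genes. On the second component, S80A replicate 1 scored 16.9 at 3 hr and 16.7 at 0 hr. The other S80A libraries scored 32.7 to 46.7 and the WT libraries -40.4 to -25.0, so results are also given without S80A replicate 1. Of 8 monocyte and macrophage markers only CD14 was in the tables, so the labelled cell type could not be checked on the other 7. CD34, 1 of 6 markers of undifferentiated myeloid cells, had group means of 27.6 and 0.958 scaled reads in S80A cells and 16.4 and 0.538 in WT cells at 3 hr and 0 hr. CD79B, 1 of 4 B cell markers, had 10.8 and 35.5 in S80A cells and 10.0 and 30.5 in WT cells, and no T cell, fibroblast or epithelial marker was in a table. Their part in the results was not tested. In these bulk samples, fewer cells that express a gene and less of its RNA per cell cannot be told apart.

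MERTK had 423, 460.1 and 566 scaled reads in S80A cells at 3 hr (replicates 1 to 3), against 1826, 2539 and 1978 in S80A cells at 0 hr. In WT cells it had 81.0, 65.4 and 84.6 scaled reads at 3 hr, against 857, 826 and 1014 at 0 hr. No group overlapped another, and from highest to lowest the groups were S80A at 0 hr, WT at 0 hr, S80A at 3 hr and WT at 3 hr. The lowest group rests on 63 to 79 reads per library. Means were 483 ± 74.3 in S80A cells at 3 hr and 2114 ± 376 at 0 hr, and 77.0 ± 10.2 in WT cells at 3 hr and 899 ± 101 at 0 hr (SD, n = 3 each). At 3 hr S80A cells had 22.8% and WT cells 8.56% of their own mean at 0 hr.

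DAB2 had 1971, 3866 and 3689 scaled reads in S80A cells at 3 hr, against 17481, 23627 and 23298 in S80A cells at 0 hr. In WT cells it had 294, 544 and 496 scaled reads at 3 hr, against 3585, 5515 and 5732 at 0 hr. The groups ranked as for MERTK, but S80A cells at 3 hr and WT cells at 0 hr overlapped. Means were 3175 ± 1047 in S80A cells at 3 hr and 21468 ± 3457 at 0 hr, and 444 ± 133 in WT cells at 3 hr and 4944 ± 1182 at 0 hr (SD, n = 3 each). At 3 hr S80A cells had 14.8% and WT cells 8.99% of their mean at 0 hr. The mean at 3 hr minus that at 0 hr was -18293 scaled reads in S80A cells and -4499 in WT cells.

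CD163 had 992, 749 and 613 scaled reads in S80A cells at 3 hr, against 1045, 1134 and 867 in S80A cells at 0 hr. In WT cells it had 873, 1129 and 1381 scaled reads at 3 hr, against 1387, 2472 and 3031 at 0 hr. Its order differed from that of the other genes, with WT cells at 0 hr highest, then WT cells at 3 hr, S80A cells at 0 hr and S80A cells at 3 hr. Both times overlapped in S80A cells, as did S80A cells at 0 hr and WT cells at 3 hr. In WT cells the times were apart by only the distance between the highest library at 3 hr and replicate 1 at 0 hr. Means were 785 ± 192 in S80A cells at 3 hr and 1015 ± 136 at 0 hr, and 1128 ± 254 in WT cells at 3 hr and 2297 ± 836 at 0 hr (SD, n = 3 each).

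**Figure D1:**
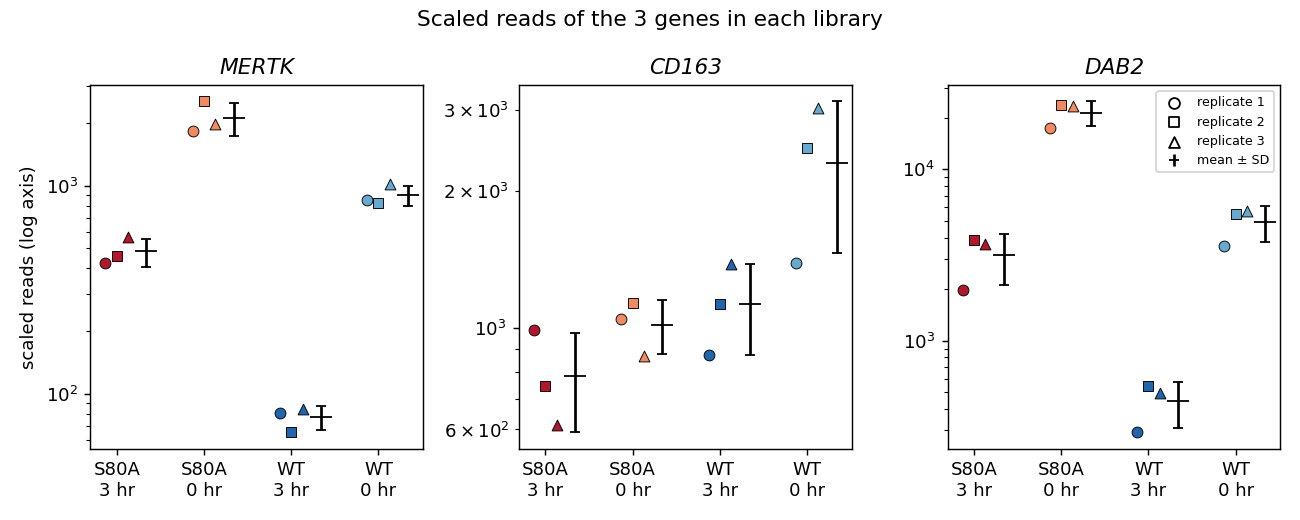
Scaled reads (log axis) of MERTK, CD163 and DAB2 in each library by group, with circles, squares and triangles for replicates 1, 2 and 3 and bars for the mean ± SD of 3 libraries. MERTK and DAB2 were highest in S80A cells at 0 hr (means 2114 and 21468) and lowest in WT cells at 3 hr (77.0 and 444), whereas CD163 was highest in WT cells at 0 hr (2297).

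Per kilobase of annotated exon, the order of the 3 genes changed between groups. In S80A cells DAB2 led at both times, with 411 ± 136 scaled reads per kilobase at 3 hr and 2782 ± 448 at 0 hr. CD163 had 135 ± 33.1 and MERTK 103 ± 15.8 in S80A cells at 3 hr, against 175 ± 23.4 and 449.9 ± 79.97 at 0 hr. In WT cells at 3 hr CD163 led with 194 ± 43.7, beside 57.6 ± 17.2 for DAB2 and 16.4 ± 2.17 for MERTK. In WT cells at 0 hr DAB2 led with 641 ± 153, beside 395 ± 144 for CD163 and 191 ± 21.4 for MERTK (SD, n = 3 each). Exon lengths are the union over GENCODE transcripts (4700, 5813 and 7717 bases for MERTK, CD163 and DAB2), so these levels depend on that annotation.

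The LPS response was large for MERTK and DAB2 and small for CD163. In the authors' deposited table the log2 fold changes of 3 hr over 0 hr were -2.11 for MERTK and -2.69 for DAB2 in S80A cells, and -3.50 and -3.38 in WT cells. In the authors' deposited table CD163 was listed for WT cells alone, at -1.002 with an adjusted p-value of 0.00264. That is the third smallest absolute change of the 2335 genes listed, just inside the authors' limit of 1 log2. In S80A cells, where it was not listed, CD163 differed by -0.39 ± 0.23 log2 (SE), so its loss with LPS rests on WT cells. Genes listed as falling were 5.67% in S80A cells and 5.11% in WT cells of 17486 genes, the number tested that the adjustment of the p-values implies, and nothing is read from the 3 being among them. By size of fall in the authors' deposited table, MERTK ranked 175 and DAB2 68 of 992 in S80A cells, and MERTK 17, DAB2 21 and CD163 893 of 894 in WT cells.

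In both genotypes the library that was lowest for a gene at 3 hr had the same number as the one lowest at 0 hr. This was replicate 1 for MERTK and DAB2 and replicate 3 for CD163 in S80A cells, and replicate 2 for MERTK and replicate 1 for CD163 and DAB2 in WT cells. Within numbers, log2(scaled reads + 1) of MERTK at 3 hr minus 0 hr was -2.11, -2.46 and -1.80 in S80A cells and -3.39, -3.64 and -3.57 in WT cells. For DAB2 these differences were -3.15, -2.61 and -2.66 in S80A cells and -3.61, -3.34 and -3.53 in WT cells. For CD163 they were -0.07, -0.60 and -0.50 in S80A cells and -0.67, -1.13 and -1.13 in WT cells. For each of the 3 genes the S80A values were all nearer 0 than the WT values. These responses were used to choose the genes, and the listing of CD163 for WT cells alone favours a larger fall there. The share of listed genes with the same pattern is not given here, so nothing is read from it.

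**Figure D2:**
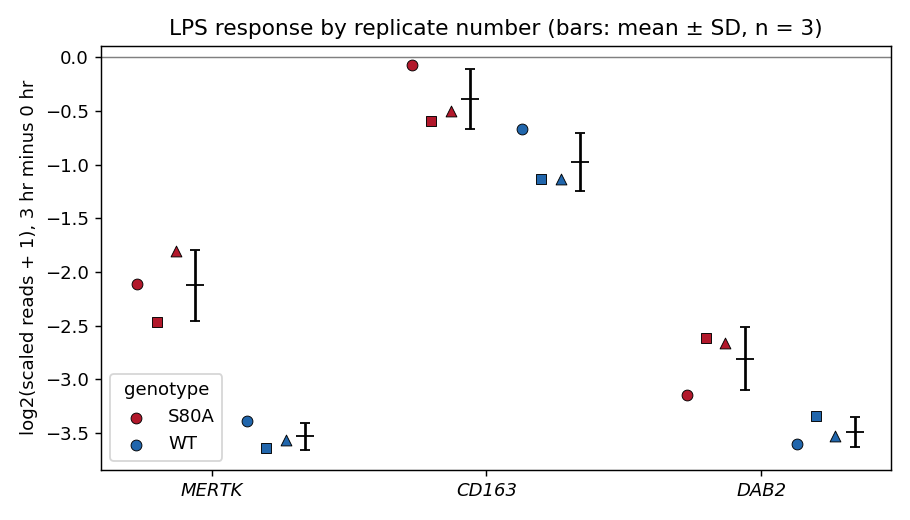
Difference of log2(scaled reads + 1) between 3 hr and 0 hr within each replicate number (circles, squares and triangles for numbers 1, 2 and 3), with S80A left of WT for each gene and bars for mean ± SD. MERTK averaged -2.12 in S80A cells and -3.53 in WT cells, DAB2 -2.81 and -3.49, and CD163 -0.39 and -0.98.

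The response in S80A cells minus that in WT cells was 1.41 ± 0.24 log2 for MERTK, 0.69 ± 0.49 for DAB2 and 0.59 ± 0.45 for CD163 (SE from the spread within the 4 groups, n = 3 each). Taken within replicate numbers, whose libraries deviated together at the 2 times, the standard errors were 0.20, 0.19 and 0.22. With 1 library left out the difference ranged from 1.29 to 1.55 for MERTK, from 0.41 to 1.00 for DAB2 and from 0.35 to 0.91 for CD163. It moved by over 1.5 times for DAB2 without WT replicate 1 at 3 hr (0.41), and for CD163 without WT replicate 1 (0.91) or 3 (0.35) at 0 hr. Both responses were used to choose the genes, so this difference was not tested. With TMM scaling over the listed genes all 6 responses were more negative, with CD163 at -1.03 in S80A cells and -1.60 in WT cells. TMM assumes that most genes do not change, and the listed genes were picked for an LPS change. More were listed as rising than falling (1516 against 992 in S80A cells, 1441 against 894 in WT cells). The responses under TMM are therefore relative to the listed genes. Under TMM the difference between genotypes was 1.40 for MERTK, 0.68 for DAB2 and 0.58 for CD163.

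The genotypes were also compared within each time, a contrast the choice did not use directly, with limma on log2(scaled reads + 1) over all 3281 listed genes, Benjamini-Hochberg adjustment and a threshold of 0.05. MERTK and DAB2 were higher in S80A cells at both times, and every S80A library was above every WT library. The share of listed genes separated in this way is not given here. Of the 3281 listed genes, 29.2% were higher and 17.7% lower in S80A cells at 3 hr, and 20.1% were higher and 10.6% lower at 0 hr. MERTK was 6.27-fold higher in S80A cells at 3 hr (difference 2.63 ± 0.22 log2, SE, limma adjusted p = 0.000785) and 2.35-fold higher at 0 hr (1.22 ± 0.17, adjusted p = 0.00814). DAB2 was 7.14-fold higher at 3 hr (2.82 ± 0.36, limma adjusted p = 0.00187) and 4.34-fold higher at 0 hr (2.14 ± 0.24, adjusted p = 0.00475). Both genes passed at both times without S80A replicate 1 and in all of the 14 alternatives tried per time. The highest adjusted p-values among these were 0.00655 for MERTK and 0.0107 for DAB2 at 3 hr, and 0.0394 and 0.0263 at 0 hr. The main tests took no account of replicate numbers. With the numbers as a block, the limma adjusted p at 0 hr was 0.027 for MERTK and 0.0168 for DAB2.

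CD163 did not pass at either time. Its difference was -0.53 ± 0.27 log2 at 3 hr (95% interval -1.18 to 0.12, limma adjusted p = 0.156), where the genotypes overlapped. At 0 hr all 3 S80A libraries were below all 3 WT libraries, with means of 1015 and 2297 scaled reads (difference -1.11 ± 0.32, 95% interval -1.92 to -0.31, limma adjusted p = 0.0509). This value lies at the threshold and passed in 7 of 14 alternatives, over a range of adjusted p-values of 0.000563 to 0.145. WT replicate 1 at 0 hr, the lowest WT library for this gene, bears on the call, since without it the difference was -1.44 (limma adjusted p = 0.0202). Without S80A replicate 1 the limma adjusted p was 0.058 at 3 hr and 0.0847 at 0 hr.

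Genes that fell with LPS give a closer background. Of the 509 genes listed as falling in both genotypes, as MERTK and DAB2 were, 23.6% were higher and 13.6% lower in S80A cells at 3 hr, and 25.1% and 9.04% at 0 hr. Of the 992 listed as falling in S80A cells, 15.1% were higher and 28% lower in S80A cells at 3 hr, with a median difference of -0.22 log2, and 24% and 10.9% at 0 hr. Of the 894 listed as falling in WT cells, as CD163 was, 36% were higher and 10.4% lower in S80A cells at 3 hr, and 25.5% and 11.9% at 0 hr. Falling genes were picked in part for low values at 3 hr and high values at 0 hr in the genotype listed, so the tests at both times share libraries with the choice. For CD163, listed for WT cells alone, the choice favours a high WT value at 0 hr. By size of difference, DAB2 ranked 114 and MERTK 148 from the top at 3 hr, and 161 and 451 at 0 hr, while CD163 ranked 868 and 290 from the bottom.

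The median difference of all listed genes was 0.19 log2 at both times. By edgeR with TMM that median was 0.01 at 3 hr and 0 at 0 hr. The share of calls that were higher was then 52.3% at 3 hr and 50.6% at 0 hr. With the deposited scaling these shares were 64.1% and 67.8% by edgeR, and 62.2% and 65.5% by limma. Under TMM, MERTK was 2.45 log2 higher in S80A cells at 3 hr and 0.998 at 0 hr, and DAB2 2.64 and 1.89. CD163 was then at -0.73 (edgeR adjusted p = 0.0372) at 3 hr and -1.41 (edgeR adjusted p = 0.00435) at 0 hr. With the deposited size factors it was at -0.52 (edgeR adjusted p = 0.126) at 3 hr and -1.18 (edgeR adjusted p = 0.011) at 0 hr.

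**Figure D3:**
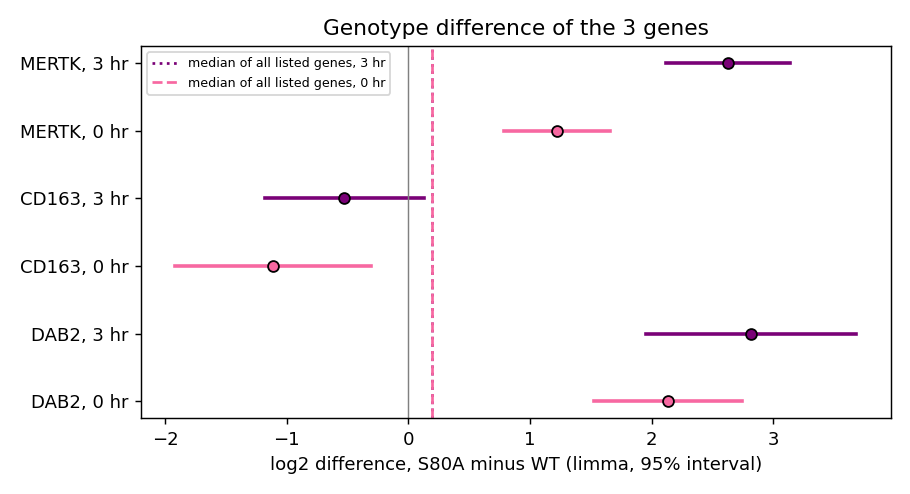
Log2 difference of S80A minus WT for each gene at 3 hr and 0 hr (points) with 95% intervals from limma on 3 libraries per group, and the median of all 3281 listed genes (0.19 at both times). The intervals of MERTK and DAB2 lie above 0 at both times, that of CD163 lies below 0 at 0 hr and spans 0 at 3 hr.

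A wider list of 128 other genes of uptake and its regulation, grouped by role, had 34 members in the tables, and the other 94 were not analysed here. By the authors' calls 13 rose and 7 fell in S80A cells, which is 10.2% and 5.47% of the 128, beside 8.67% and 5.67% of all genes tested. In WT cells 13 rose and 13 fell, each 10.2% of the 128, beside 8.24% and 5.11% of all genes tested. These shares take all 128 as tested by the authors, which the tables do not show. By limma, 19 of the 34 were higher and 3 lower in S80A cells at 3 hr, and 16 were higher and 1, CEBPA, lower at 0 hr. These counts are to be read against the shares of all listed genes given above. Many of the 34 were listed through 1 genotype alone. A rise in S80A cells alone or a fall in WT cells alone favours a higher S80A value at 3 hr. A rise in WT cells alone or a fall in S80A cells alone favours a lower one. At 0 hr each of these listings favours the opposite direction. The counts, and the results of single genes below, therefore share libraries with the choice. The median difference of the 34 was 0.93 log2 at 3 hr and 0.83 at 0 hr. With TMM, 17 were higher and 4 lower at 3 hr, and 17 and 2 at 0 hr. Without S80A replicate 1, 20 were higher at 3 hr and 17 at 0 hr. At 0 hr the count was 9 without WT replicate 1, 10 without WT replicate 2 and 8 without S80A replicate 2, while all listed genes higher in S80A cells numbered 389, 342 and 312 in those fits.

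Of 17 receptors for dying cells besides MERTK, 5 were listed, and all 5 were higher in S80A cells at both times. Of all listed genes, 29.2% were higher at 3 hr and 20.1% at 0 hr, and the receptors that were not listed could not be seen. HAVCR2, the phosphatidylserine receptor TIM-3, fell with LPS in both genotypes, by the authors' deposited table (-1.31 log2 in S80A cells and -2.08 in WT cells). It was at 2087 ± 840.5 scaled reads in S80A cells and 368 ± 28.5 in WT cells at 3 hr (limma adjusted p = 0.00258), and at 5292 ± 1329 and 1616 ± 30.8 at 0 hr (adjusted p = 0.00644). ITGB5, an integrin subunit that pairs with αv, was 3.06 log2 higher in S80A cells at 3 hr (limma adjusted p = 0.00148) and 1.97 at 0 hr (adjusted p = 0.00566). ITGAV, the αv subunit, was 2.44 log2 higher at 3 hr and 1.86 at 0 hr. By the authors' deposited table, ITGB5 fell in WT cells alone, ITGAV and SCARF1 rose in S80A cells alone, and ITGB3 rose in both. For ITGB5, ITGAV and SCARF1, being listed in that way favours a higher S80A value at 3 hr. Their tests at 3 hr therefore share libraries with the choice of genes. ITGB3 is outside the rule for naming and was chosen with its values in view. With any 1 library left out, all 5 passed at 3 hr and at least 4 at 0 hr. Of 10 bridging molecules 2 were listed, ANXA5, which was higher in S80A cells at 3 hr (0.59 log2, limma adjusted p = 0.0457), and THBS1, which was higher at 0 hr (2.84 log2, adjusted p = 0.0122). ANXA5 was listed for a rise in S80A cells alone, which favours a higher S80A value at 3 hr. THBS1 was listed for a rise in WT cells alone, which favours a higher S80A value at 0 hr. GAS6 and PROS1, the ligands of MERTK, were not listed.

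Of 20 scavenger receptors besides CD163, 4 were listed. OLR1, a receptor for oxidised LDL, rose in both genotypes (4.56 log2 in S80A cells and 2.38 in WT cells, the authors' deposited table). It was at 4235 ± 1906 scaled reads in S80A cells and 906 ± 461 in WT cells at 3 hr (limma adjusted p = 0.00675), and at 109 ± 95.2 and 131 ± 109 at 0 hr (adjusted p = 0.798). CD14, the LPS co-receptor, fell by the authors' deposited table (-1.39 log2 in S80A cells and -1.46 in WT cells), and did not pass the genotype test at either time. SCARF1 is given above, and AGER, outside the rule for naming and chosen with its values in view, was lower in S80A cells at 3 hr (-1.15 log2, limma adjusted p = 0.00343). AGER was listed for a rise in WT cells alone, which favours that direction. MSR1, MARCO and MRC1 were not listed.

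In haem and iron handling, the steps that follow uptake by CD163, 3 of 12 genes were listed. HMOX1, which degrades haem, was listed for a fall in WT cells alone (-2.14 log2, the authors' deposited table), which favours a higher S80A value at 3 hr. It was at 3258 ± 1373 scaled reads in S80A cells and 742 ± 265 in WT cells at 3 hr (limma adjusted p = 0.00593), and at 6348 ± 366 and 3426 ± 535 at 0 hr (adjusted p = 0.0124). FTH1, the ferritin heavy chain, was 1.06 log2 higher in S80A cells at 0 hr (limma adjusted p = 0.0107) and did not pass at 3 hr. SLC40A1, the iron exporter ferroportin, passed at neither time.

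Of 22 adaptor and clathrin coat genes besides DAB2, 3 were listed. NUMB, which like DAB2 has a phosphotyrosine-binding domain, was 0.91 log2 higher in S80A cells at 3 hr (limma adjusted p = 0.00651) and 0.76 at 0 hr (adjusted p = 0.0392). ITSN1, an endocytic scaffold, was 1.48 log2 higher at 3 hr and 1.14 at 0 hr (limma adjusted p = 0.00374 and 0.0449). ITSN1 was listed for a fall in WT cells alone, which favours that direction at 3 hr. None of 7 lipoprotein receptors that such adaptors serve was listed. ADAM17 was the 1 listed gene of 6 sheddases and their regulators. It was at 4220.5 ± 601 scaled reads in S80A cells and 2127 ± 318 in WT cells at 3 hr (limma adjusted p = 0.0109), and at 2144 ± 697 and 959 ± 101 at 0 hr (adjusted p = 0.0353). ADAM17 was listed for a rise in WT cells alone, which favours a higher S80A value at 0 hr and a lower one at 3 hr.

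Of 14 engulfment signalling genes 4 were listed, RHOG, SRC, BCAR1 and TRIO. BCAR1, a scaffold, and TRIO, an exchange factor for small GTPases, were higher in S80A cells at 3 hr (limma adjusted p = 0.0416 and 0.00523), and none of the 4 passed at 0 hr. TRIO was listed for a fall in WT cells alone, which favours a higher S80A value at 3 hr. BCAR1 was listed for a rise in WT cells alone, which favours a lower one. Of 6 genes of cholesterol efflux 2 were listed, and both were higher in S80A cells at 3 hr, ABCG1 by 3.29 log2 (limma adjusted p = 0.0033) and ABCA1 by 1.33 (adjusted p = 0.0054). ABCG1 was listed for a fall in WT cells alone and ABCA1 for a rise in S80A cells alone, which favours that direction. Of 7 genes of do-not-eat-me signals and their receptors 3 were listed. SIRPA, the receptor of CD47, and CD274 did not pass the genotype test. PDCD1 was lower in S80A cells at 3 hr, at 0.748 ± 1.29 scaled reads against 17.5 ± 2.17 in WT cells (limma adjusted p = 0.0019), and had no reads in either genotype at 0 hr. It was listed for a rise in WT cells alone, which favours a lower S80A value at 3 hr.

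Of 13 nuclear receptors and lineage factors, 8 were listed. CEBPA, a myeloid transcription factor, was lower in S80A cells at both times (-1.10 log2 at 3 hr, limma adjusted p = 0.00476, and -1.01 at 0 hr, adjusted p = 0.0326). RXRA, the partner of LXR and PPAR receptors, was 0.62 log2 higher in S80A cells at 3 hr (limma adjusted p = 0.0284), as was PPARD (1.72, adjusted p = 0.0019), and neither passed at 0 hr. PPARD was listed for a rise in S80A cells alone, which favours that direction. MAF, PPARG, KLF4 and CEBPB are outside the rule for naming and were chosen with their values in view. MAF was at 765 ± 42.7 scaled reads in S80A cells and 350.1 ± 51.9 in WT cells at 3 hr, and at 4667 ± 1046 and 2048 ± 379 at 0 hr (limma adjusted p = 0.00447 and 0.0178). PPARG was higher in S80A cells at both times, KLF4 at 0 hr, and CEBPB passed at neither. KLF4 was listed for a fall in S80A cells alone, which favours a higher S80A value at 0 hr. PPARG was listed for a fall in WT cells alone, which favours a higher S80A value at 3 hr.

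**Figure D4:**
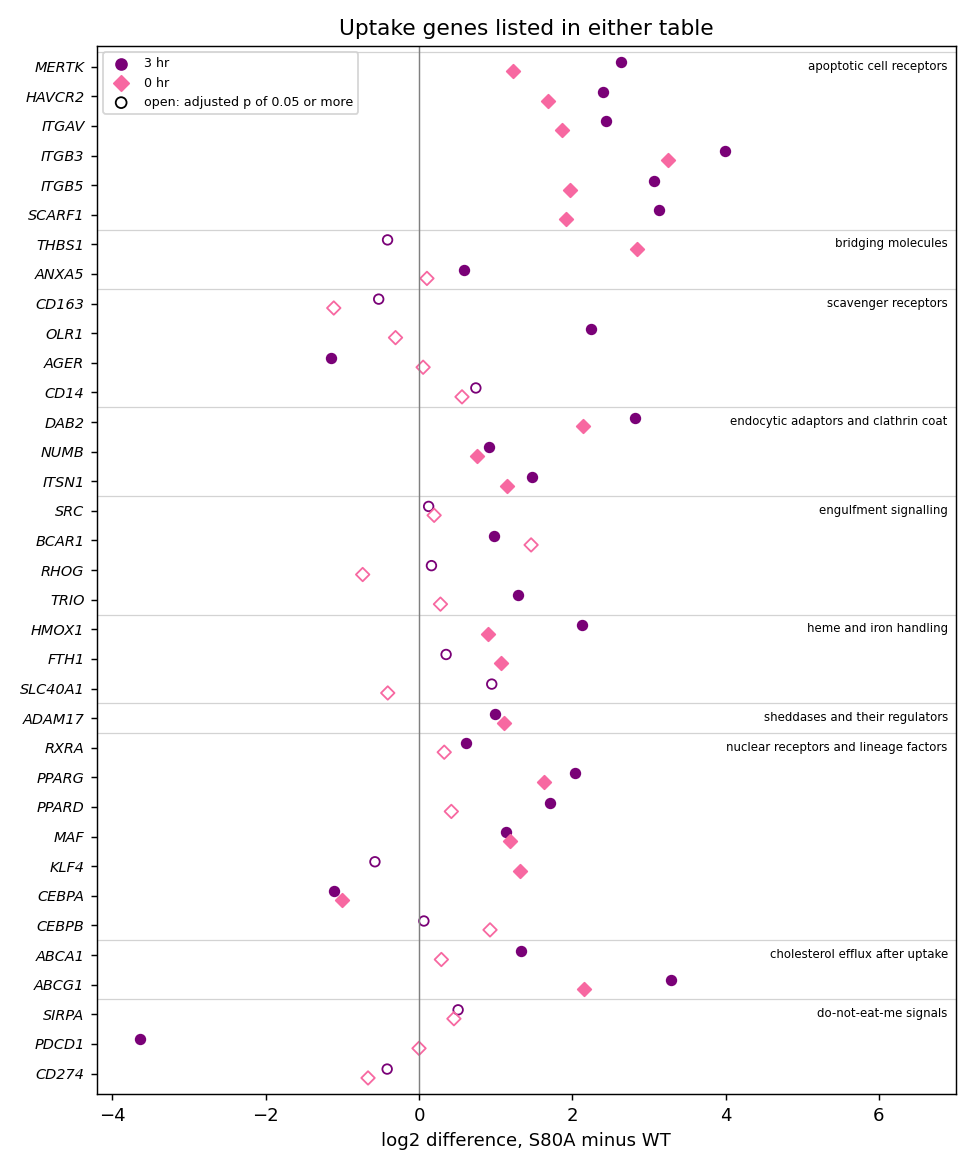
Log2 difference of S80A minus WT for the 3 genes and 32 other listed genes of uptake, at 3 hr (circles) and 0 hr (diamonds), grouped by role, with filled symbols for a limma adjusted p under 0.05. All 6 listed receptors for dying cells lie right of 0 with filled symbols, and CD163 lies left of 0 with open symbols.

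Likeness of pattern was measured over the 12 libraries as the root mean square difference of log2(scaled reads + 1) after centring each gene on its own mean, over the 1641 genes whose mean reached the median. A smaller value means a closer pattern. The 5 genes closest to MERTK were TMEM86A (0.40 log2), MTUS1 (0.45), SH3TC1 (0.46), PLA2G15 (0.50) and DAB2 (0.50). TMEM86A encodes a lysoplasmalogenase and PLA2G15 a lysosomal phospholipase. The closest to DAB2 were MERTK, PRR5L (0.56), TMEM86A (0.59), MTUS1 (0.64) and PLA2G15 (0.72). CD163 ranked 524 in closeness to MERTK (1.79) and 543 to DAB2 (2.10). The closest to CD163 were UBASH3B (0.35), ZNF692 (0.38), FOXRED2 (0.39), COA7 (0.40) and RRS1 (0.43), of which COA7 takes part in cytochrome c oxidase assembly and RRS1 in ribosome assembly.

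TMEM86A was at 363 ± 48.1 scaled reads in S80A cells at 3 hr and 1746 ± 637 at 0 hr, and at 47.3 ± 9.41 in WT cells at 3 hr and 868 ± 114 at 0 hr (SD, n = 3 each). PRR5L was at 149 ± 70.8 and 1377 ± 251 in S80A cells, and at 30.6 ± 9.92 and 147 ± 21.7 in WT cells, at 3 hr and 0 hr. UBASH3B was at 229 ± 105 and 402 ± 118 in S80A cells, and at 385 ± 42.5 and 904 ± 112 in WT cells. These genes were picked for their likeness over the same libraries, so their levels are a description.

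**Figure D5:**
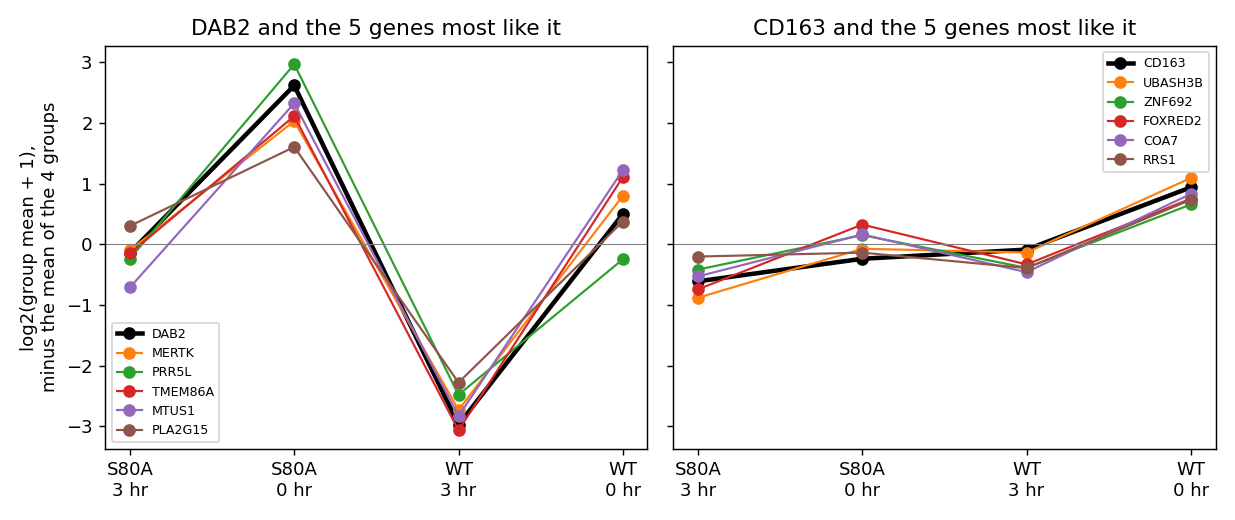
Group means as log2(mean scaled reads + 1) minus the mean of the 4 groups, for DAB2 (left) and CD163 (right) in black with the 5 genes most like each in colour, and lines that join the groups of 1 gene. DAB2 peaks in S80A cells at 0 hr and is lowest in WT cells at 3 hr, and CD163 is highest in WT cells at 0 hr.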

How the data were processed

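Per the submitters' processing notes, the build was GRCh38 and the tools named were HISAT, HTSeq, DESeq2, StringTie, FastQC and Cuffdiff. Versions, the annotation and whether counting used strand were not given in the sources used here. Per the labels' protocols, libraries were stranded, poly(A)-selected and read single-end over 75 bases. The authors deposited 1 table per genotype, with the log2 fold change of 3 hr over 0 hr, its p-value and adjusted p-value, and for every library a signal. This deposited signal is a read count over a size factor (0.834 to 1.29). All values (100%) gave whole reads to within 0.01 reads. The deposited tables hold only genes whose adjusted p is below 0.01 and whose log2 fold change exceeds 1 in size, so tests run over listed genes and not the transcriptome.

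The 2 tables were joined on gene identifier. Genotypes were compared with limma 3.58.1 (R 4.3.3) on log2(scaled reads + 1), 6 libraries per time and no filter, a scale that understates changes of genes with few reads. Alternatives were edgeR 4.0.16 and DESeq2 1.42.0 on the recovered counts, other pseudocounts, a filter, all 12 libraries, the replicate number as a block, and omission of each library. The fits were also run on simulated counts, with the same dispersion for every gene and no link between same-numbered libraries. These data differ on that link, so the run does not vouch for the p-values given here. Same-numbered S80A and WT libraries deviated together at 0 hr (correlations 0.188 to 0.259 over listed genes), which comes from the data and not the labels. Numbers were therefore taken to pair libraries at 0 hr, but the main tests left the pairing out and only the replicate block used it. Same-numbered libraries also deviated together between 3 hr and 0 hr within a genotype (S80A 0.196 to 0.299, WT 0.153 to 0.343). No replicates of a group were alike within sampling noise (chi-square per gene 9.44 to 182). Up to 4 listed genes of highest mean per role list and 5 of closest pattern per gene were named, and results of 2 listed genes are not reported here. The genes and lists were chosen with earlier results of these data known, and call counts of the wider list under each alternative were added after seeing the data.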

Additional observations from a re-analysis of the deposited data

How the results depend on the processing

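MERTK and DAB2 kept their direction and their side of the threshold in all 14 alternatives per genotype comparison, and no result reversed. CD163 at 0 hr passed with a pseudocount of 5 (-1.11), a minimum mean of 10 scaled reads (-1.11), all 12 libraries in the fit (-1.11), edgeR with TMM (-1.41) or the deposited size factors (-1.18) and DESeq2 (-1.18), and at 3 hr with edgeR and TMM (-0.73). The cause was not tested. Genes lower in S80A cells at 0 hr numbered 347 with limma, 358 with edgeR and the deposited size factors, and 528 with edgeR and TMM. Lower genes of the wider list at 0 hr numbered 1 with limma, 2 with TMM, with DESeq2 and with all 12 libraries, and 0 with the replicate block. With TMM, LPS responses in S80A and WT cells, relative to the listed genes, were -2.76 and -4.15 for MERTK, -1.03 and -1.60 for CD163, and -3.44 and -4.12 for DAB2.

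With 1 library left out, genes higher and lower in S80A cells numbered 692 to 1090 and 363 to 698 at 3 hr, and 312 to 786 and 169 to 414 at 0 hr. The counts moved by over 1.5 times without S80A replicate 2 or any WT replicate at 0 hr, and for lower genes without WT replicate 2 (383) or 3 (363) at 3 hr. Genes of the wider list higher at 0 hr numbered 8 to 17, and lower 0 to 2. CD163 ranged from -0.71 to -0.36 at 3 hr and from -1.44 to -0.88 at 0 hr.

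At 3 hr, where same-number correlations were 0.064 to 0.196 and numbers were not taken to pair libraries, the replicate block gave 940 higher and 553 lower genes, and 5 of 6 libraries correlated best with their own number. At 0 hr the block gave 669 and 340, with CD163 at a limma adjusted p of 0.0838, and it changed no call of the 3 genes at either time. Precision is limited by 3 libraries per group.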
